A study of Homo sapiens with 15 samples.

Results

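The genes of NRF2, glutathione and peroxide defence were followed across 3 sorted fractions of PEO1 cells, a human ovarian cancer line long established in culture. The set lists 36 genes, chosen by function: NRF2 and its control, NRF2 target enzymes, glutathione synthesis, the thioredoxin system, superoxide dismutases and catalase, glutathione peroxidases, peroxiredoxins, glutathione transferases and ferritin. Each gene was read from the brightest probe set that names it alone, and 34 of the 36 were measured among 19775 genes in all, while PRDX5 and FTH1 were not analysed here. None of the 34 was removed for low signal, and 30 of them had a mean intensity above 64.

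Parental PEO1 cells were cultured in RPMI-1640 medium with serum, carried no transgene or treatment in the labels, and were sorted after staining for the surface proteins CD90 and CD133 and with a dead-cell dye. Each sorted fraction has 5 arrays numbered 1 to 5: cells without either protein (CD90-/CD133-), cells with CD90 alone (CD90+/CD133-) and cells with both (CD90+/CD133+). The study used the CD90+ cells of this line as a model of cancer stem-like cells, so the comparisons ask how the CD90+ fractions differ from CD90-/CD133- cells, and whether CD133 divides the CD90+ cells further. All cells come from 1 line. The methods call the arrays of the CD133- fractions biological replicates, and the labels do not say whether the sorts came from separate cultures, so p-values measure the spread between these arrays.

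THY1, the gene of CD90, lay between 57.8 and 101 in CD90-/CD133- cells and between 728 and 2171 in the CD90+ fractions. PROM1, the gene of CD133, lay at most at 156 in the CD133- fractions and at 429 or more in CD90+/CD133+ cells. On every array these genes followed the sort label. Of 6 epithelial markers the summed intensity was 42530 to 50480 in CD90-/CD133- cells, 31720 to 37950 in CD90+/CD133- cells and 28160 to 34800 in CD90+/CD133+ cells. The sum follows KRT18, KRT7 and KRT8, which were lower in both CD90+ fractions, while EPCAM was higher (log2 0.33 and 0.27, adjusted p = 0.00429 and 0.0123) and PAX8 (0.30 and 0.32) and MUC16 (0.01 and -0.15) did not pass. Leukocyte markers (4 of 5 measured) summed to 111 to 135 in CD90-/CD133- cells and 142 to 233 in the CD90+ fractions, with CD14 higher by 0.96 and 1.00 on the log2 scale. Endothelial markers (4 of 4) summed to 97.6 to 132 and fibroblast markers (6 of 6) to 175 to 265, and PTPRC, LYZ, CDH5, KDR, COL3A1, LUM and PDGFRA were at the floor of 16 on every array. Their part in the differences reported for the defence genes was not tested.

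NRF2 is a transcription factor that KEAP1 holds in the cytoplasm and delivers to the CUL3 ubiquitin ligase for degradation. Electrophiles and oxidants modify KEAP1, NRF2 then accumulates, pairs with a small MAF protein such as MAFG and binds antioxidant response elements in the control regions of its targets. Those targets make glutathione, conjugate it to electrophiles, detoxify quinones and reduce peroxides through the glutathione and thioredoxin systems. Since NRF2 is governed largely by the stability of its protein, the level of its mRNA is only one part of its activity, and neither protein nor activity was measured here.

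The antioxidant response element has the core TGACNNNGC, which was searched on both strands of the RefSeq promoter windows (GRCh38.p14, 250 bases before to 50 after each transcription start). Of 27 members with a window, 8 held the core (29.6%), against 25.4% of 67 other genes of the pathway and 18.4% of 15384 measured genes. Counted by window, 9 of 38 windows of members held it (23.7%), against 13.3% of 35116 windows in the table. The 8 genes were KEAP1, GCLM, TXNRD1, GPX2, GSTP1, GSTO1, GSTA4 and MGST1. The sequences below are shown because they match the element through which NRF2 is known to act. Each reads 5′ to 3′ in the direction of its gene, capitals mark the core, and a core in capitals that begins with GC lies on the other strand.
KEAP1: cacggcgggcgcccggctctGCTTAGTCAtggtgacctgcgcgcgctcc
GCLM: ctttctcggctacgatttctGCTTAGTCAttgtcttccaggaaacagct
TXNRD1: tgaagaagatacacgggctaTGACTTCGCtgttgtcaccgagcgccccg
GSTP1: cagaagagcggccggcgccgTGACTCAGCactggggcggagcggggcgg
GSTO1: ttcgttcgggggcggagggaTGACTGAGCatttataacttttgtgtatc
GSTA4: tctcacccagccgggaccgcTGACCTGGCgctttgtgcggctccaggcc
GPX2: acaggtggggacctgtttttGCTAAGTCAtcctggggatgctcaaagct
The KEAP1 stretch is chr19:10502774-10502822 on the minus strand, with the core 31 bases before the start. The GCLM stretch is chr1:93909436-93909484 on the minus strand, with the core 34 bases before the start. The TXNRD1 stretch is chr12:104215660-104215708 on the plus strand (99 bases before), the GSTP1 stretch chr11:67583726-67583774 on the plus strand (66 bases before) and the GSTO1 stretch chr10:104254646-104254694 on the plus strand (226 bases before). The GSTA4 stretch is chr6:52995265-52995313 on the minus strand (9 bases before) and the GPX2 stretch chr14:64942839-64942887 on the minus strand (122 bases before). KEAP1, TXNRD1 and GSTO1 hold another core in the same window, and TXNRD1 a further core in a second window. The core of MGST1 lies 30 bases after its start. NFE2L2, NQO1, GCLC, SRXN1 and MGST3 have a window without these letters, which says nothing of elements elsewhere. HMOX1, GSS, GSR, SOD1, PRDX1, PRDX6 and MGST2 have no window in the table.

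CD90+/CD133- cells differed from CD90-/CD133- cells at 15 of the 34 genes (adjusted p under 0.05, limma with the replicate number as a block), or 44.1%, where 32.4% of all genes passed the same test. Of these, 3 were higher (14.8% of all genes were) and 12 were lower (17.6% of all genes were). The higher genes were KEAP1, GCLC and PRDX6, and the lower ones NFE2L2, NQO1, SRXN1, SOD1, GPX1, PRDX1, PRDX3, GSTM3, GSTA4, MGST1, MGST2 and MGST3. The median log2 fold change of the 34 was -0.14 against 0.0 over all genes, and the arrays of the fractions did not overlap for 7 of the 34 genes and for 3161 of 19775 genes in all (16%). In the unpaired fit, without the replicate number, 10 of the 34 (29.4%) and 22.4% of all genes passed. Many of all the genes are dim, unlike most of the 34. In a fit of only genes above a mean intensity of 64, 15 of 30 of these genes passed. Of all 9988 genes in that fit, 2768 were higher and 3047 lower, so the excess over all genes was not seen there.

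CD90+/CD133+ cells differed from CD90-/CD133- cells at 12 of the 34 genes (35.3%), where 31.2% of all genes passed. GCLC, PRDX6 and GSTO1 were higher (3 genes, with 14.2% of all genes higher), and NFE2L2, NQO1, SRXN1, TXNRD1, SOD1, SOD2, MGST1, MGST3 and FTL were lower (9 genes, with 17.0% of all genes lower). The median log2 fold change was -0.12, and the arrays did not overlap for 7 of the 34 genes and for 16.9% of all genes. Without replicate 4, 7 of the 34 (20.6%) and 24.0% of all genes passed. In the fit of only genes above a mean intensity of 64, 14 of 30 passed, where 2764 of 9988 genes were higher and 2883 lower. Both comparisons use the same CD90-/CD133- arrays, so their values are given side by side and are no independent support for each other.

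**Figure D1:**
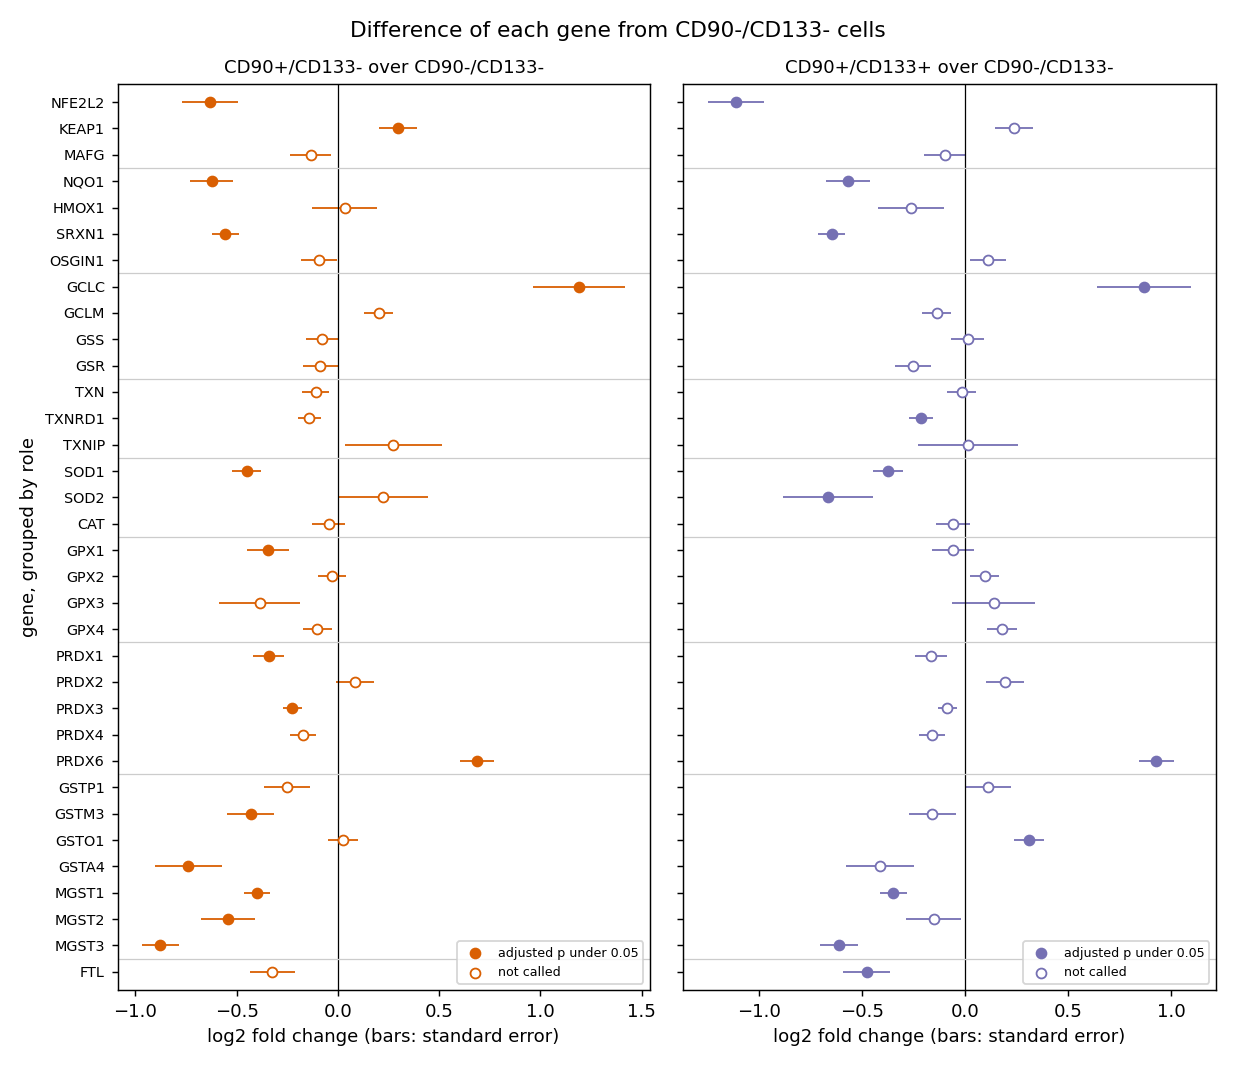
Log2 fold change of the 34 measured genes (rows, grouped by role) in CD90+/CD133- cells (left) and CD90+/CD133+ cells (right) over CD90-/CD133- cells, with the standard error from limma as bars. Filled points passed an adjusted p of 0.05: 3 higher and 12 lower on the left, 3 higher and 9 lower on the right.

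NFE2L2, which encodes NRF2, was lower in both CD90+ fractions. Its intensity in replicates 1 to 5 was 1436, 1613, 1595, 1629 and 1603 in CD90-/CD133- cells, then 826, 874, 1005, 997 and 1500 in CD90+/CD133- cells, and 805, 763, 672, 724 and 686 in CD90+/CD133+ cells. Replicate 5 of the CD90+/CD133- cells lay within the range of the CD90-/CD133- cells, and the CD90+/CD133+ cells lay below every array of the other fractions. The log2 fold change was -0.63 in CD90+/CD133- cells (standard error 0.14, adjusted p = 0.00747) and -1.11 in CD90+/CD133+ cells (adjusted p = 3.71e-04), lower in 5 of 5 pairs each time. Between the CD90+ fractions it was -0.48, which missed the threshold (adjusted p = 0.0852). In bulk RNA, fewer cells with a transcript and less of it per cell cannot be told apart.

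NFE2L2 lies on chromosome 2 among genes that were also lower. Against the median of all expressed genes, its 30 nearest expressed neighbours had a median log2 fold change of -0.61 in CD90+/CD133- cells, where NFE2L2 itself was at -0.60. In CD90+/CD133+ cells the neighbours were at -0.71 and NFE2L2 at -1.11. The part of the surrounding region in the change of NFE2L2 was not tested. The dimmer probe sets of NFE2L2 were at -0.30 and -0.13 in CD90+/CD133- cells and at -0.64 and -0.19 in CD90+/CD133+ cells, of which the last in each fraction did not pass (adjusted p = 0.41 and 0.189 over all probe sets).

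KEAP1, the adaptor that marks NRF2 for degradation, had mean intensities of 990.4 in CD90-/CD133- cells, 1216 in CD90+/CD133- cells and 1168 in CD90+/CD133+ cells, and the fractions overlapped. It was higher in CD90+/CD133- cells by 0.30 on the log2 scale (adjusted p = 0.0389), in 4 of 5 pairs, and by 0.24 in CD90+/CD133+ cells (adjusted p = 0.0897). The unpaired fit gave an adjusted p of 0.141, and the call was lost without replicate 1, 2, 3 or 4 (adjusted p 0.107 to 0.163) and without 11 of the 15 single arrays. MAFG, a partner of NRF2 on DNA, was at -0.13 and -0.10 and passed in neither comparison.

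**Figure D2:**
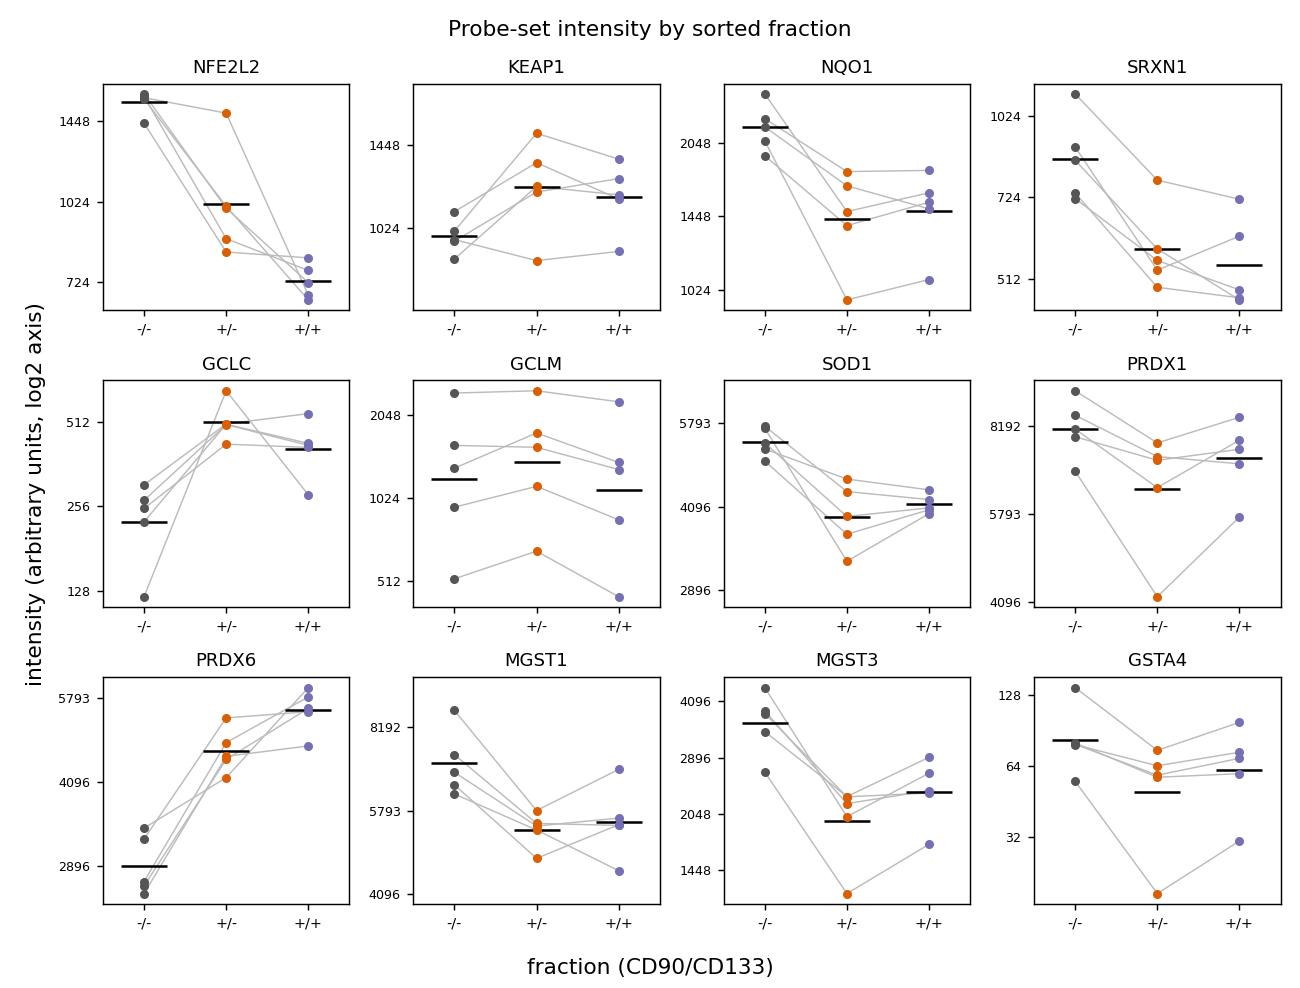
Probe-set intensity (log2 axis, arbitrary units) of 12 genes on all 15 arrays, with the fractions CD90-/CD133-, CD90+/CD133- and CD90+/CD133+ from left to right. Grey lines join arrays of the same replicate number and black bars are geometric means; NFE2L2 and MGST3 sit lower and GCLC and PRDX6 higher in both CD90+ fractions, while the 5 lines of GCLM run nearly level at 5 different heights.

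Of 4 NRF2 target enzymes outside glutathione metabolism, NQO1 and SRXN1 were lower in both CD90+ fractions and HMOX1 and OSGIN1 passed in neither. NQO1 reduces quinones with both electrons at once. Its intensities were 2579, 2208, 1927, 2296 and 2067 in CD90-/CD133- cells, 1482, 1673, 1387, 1789 and 978 in CD90+/CD133- cells, and 1619, 1501, 1549, 1799 and 1076 in CD90+/CD133+ cells. Every CD90-/CD133- array lay above every CD90+ array, and replicate 5 was the lowest of both CD90+ fractions. The log2 fold changes were -0.62 (standard error 0.11, adjusted p = 0.002) and -0.57 (adjusted p = 0.00344), and its other probe sets gave values from -0.34 to -0.74. The dimmest of them, with a mean of 647, was at -0.44 in CD90+/CD133+ cells and did not pass there (adjusted p = 0.0746 over all probe sets).

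SRXN1 encodes sulfiredoxin, which repairs overoxidized peroxiredoxins. It read 1122, 720.1, 896, 737 and 847 in CD90-/CD133- cells, 779, 554, 532, 494 and 582 in CD90+/CD133- cells, and 718, 489, 614, 473 and 469 in CD90+/CD133+ cells. The CD90+/CD133+ arrays lay below all CD90-/CD133- arrays and the CD90+/CD133- arrays overlapped them at replicate 1, the highest array of each fraction. Within each number the CD90-/CD133- array was above the others, and the log2 fold changes were -0.56 (standard error 0.07, adjusted p = 3.06e-04) and -0.65 (adjusted p = 1.34e-04). HMOX1, the stress-inducible haem oxygenase, had means of 90.7, 92.8 and 75.6, and OSGIN1 stayed between 34.4 and 53.6 on all 15 arrays.

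Glutathione is made in a pair of steps: glutamate-cysteine ligase, with the catalytic subunit GCLC and the modifier subunit GCLM, joins the first amino acids, and GSS adds glycine, while GSR regenerates the reduced form. Only GCLC among these 4 passed in the comparisons with CD90-/CD133- cells, and it was higher in both. Its intensities were 305, 252, 269, 226 and 122 in CD90-/CD133- cells, 503, 426, 499.9, 501 and 659 in CD90+/CD133- cells, and 547, 415, 422, 429 and 282 in CD90+/CD133+ cells. The CD90+/CD133- arrays were all above the CD90-/CD133- arrays, and replicate 5 of the CD90+/CD133+ cells fell inside the CD90-/CD133- range.

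The log2 fold change of GCLC was 1.19 in CD90+/CD133- cells (2.28-fold, standard error 0.23, adjusted p = 0.0039) and 0.87 in CD90+/CD133+ cells (1.82-fold, adjusted p = 0.0192), in 5 of 5 pairs each. A second probe set of GCLC gave 1.53 and 1.14, and the remaining one was at the floor on every array. The call in CD90+/CD133+ cells was lost without replicate 1, 2, 3 or 4 (adjusted p 0.0561 to 0.0856) and without the CD90+/CD133+ array of replicate 1, 2 or 4 (0.0508 to 0.0534), and that in CD90+/CD133- cells only in the fit of those 2 fractions alone (0.0527). The neighbours of GCLC on chromosome 6 had a median of 0.28 where GCLC was at 1.22.

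GCLM gave log2 fold changes of 0.20 (adjusted p = 0.0602) and -0.14 (adjusted p = 0.195), so it passed in neither. Of its dimmer probe sets, 1 gave 0.57 in CD90+/CD133- cells and passed (adjusted p = 0.0107 over all probe sets) and the other 0.24 (adjusted p = 0.317), with 0.01 and -0.06 in CD90+/CD133+ cells. GSS was at -0.08 and 0.01. GSR was at -0.09 and -0.26 (adjusted p = 0.0575 for the latter), and its dimmer probe set at -0.42 and -0.44 passed in both (adjusted p = 0.00201 and 0.00163 over all probe sets).

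The thioredoxin system reduces protein disulfides and peroxiredoxins: TXN is the carrier, TXNRD1 its NADPH-dependent reductase and TXNIP its inhibitor. None of the 3 passed in CD90+/CD133- cells. In CD90+/CD133+ cells TXNRD1 was lower, with means of 2474 in CD90-/CD133- cells and 2132 in CD90+/CD133+ cells and overlapping arrays. Its log2 fold change was -0.21 (standard error 0.06, adjusted p = 0.0194), in 5 of 5 pairs. The unpaired fit gave an adjusted p of 0.735, and the call was lost without replicate 1, 2 or 4 (0.0532 to 0.0964), without the CD90-/CD133- array of replicate 2 or 4 and without the CD90+/CD133+ array of replicate 4 or 5. TXN stayed within 0.11 of zero on the log2 scale in both comparisons, and TXNIP was at 0.27 and 0.01 with a standard error of 0.24.

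SOD1, the cytosolic copper-zinc superoxide dismutase, was lower in both CD90+ fractions. It read 4945, 5714, 5199, 5331 and 5665 in CD90-/CD133- cells, 3651, 4358, 4590, 3930 and 3264 in CD90+/CD133- cells, and 4041, 4216, 4389, 4073 and 3977 in CD90+/CD133+ cells. No CD90+ array reached the lowest CD90-/CD133- array. The log2 fold changes were -0.45 (standard error 0.07, adjusted p = 0.00145) and -0.37 (adjusted p = 0.00394).

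SOD2, the mitochondrial manganese enzyme, read 204, 134, 206, 123 and 190.2 in CD90-/CD133- cells, 159, 147, 264, 144 and 323 in CD90+/CD133- cells, and 137, 101, 97.8, 103 and 93.5 in CD90+/CD133+ cells. The last fraction lay below all CD90+/CD133- arrays and overlapped the CD90-/CD133- arrays at replicate 1. The log2 fold change in CD90+/CD133+ cells was -0.67 (standard error 0.22, adjusted p = 0.0484), against 0.22 in CD90+/CD133- cells (adjusted p = 0.557). The call was lost in the unpaired fit (adjusted p = 0.0763), without any 1 of the 5 replicate numbers (0.0722 to 0.167) and without 11 of the 15 single arrays, and it rests on a single dim probe set. CAT, which splits hydrogen peroxide, was at -0.04 and -0.06.

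The glutathione peroxidases spend glutathione to reduce peroxides, GPX4 those of membrane lipids. GPX1 read 2547, 3825, 3376, 4290 and 3862 in CD90-/CD133- cells, 2418, 2843, 3277, 2942 and 2496 in CD90+/CD133- cells, and 2435, 3139, 4284, 3973 and 3397 in CD90+/CD133+ cells. The fractions overlapped, with replicate 1 low in each. It was lower in CD90+/CD133- cells by -0.34 on the log2 scale (standard error 0.10, adjusted p = 0.0326), in 5 of 5 pairs, and at -0.06 in CD90+/CD133+ cells. The unpaired fit gave 0.187, and the call was lost without replicate 2, 4 or 5 (adjusted p 0.11 to 0.15), without either array of these numbers in the fractions compared and without the CD90+/CD133- array of replicate 3. GPX2, between 22.4 and 32.1 on all arrays, and GPX4 passed in neither comparison.

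GPX3, the secreted peroxidase, read 205, 274, 361, 335 and 924 in CD90-/CD133- cells, 137, 194, 357, 203 and 854 in CD90+/CD133- cells, and 130.2, 238, 568, 352 and 1638 in CD90+/CD133+ cells. It overlapped between fractions, with replicate 5 far above the others in each. Its log2 fold changes of -0.39 and 0.14 missed the threshold (adjusted p = 0.199 and 0.77).

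Peroxiredoxins reduce peroxides through a reactive cysteine, and the 5 measured did not move together. PRDX6, which uses glutathione and also acts on phospholipids, was higher in both CD90+ fractions. It read 3234, 2580, 2712, 2664 and 3382 in CD90-/CD133- cells, 5336, 4551, 4818, 4494 and 4168 in CD90+/CD133- cells, and 5475, 4752, 5820, 5551 and 6049 in CD90+/CD133+ cells. Every CD90+ array exceeded every CD90-/CD133- array. The log2 fold changes were 0.69 (1.61-fold, standard error 0.08, adjusted p = 3.42e-04) and 0.93 (1.90-fold, adjusted p = 6.65e-05), its other probe set gave 0.80 and 0.92, and the neighbours of PRDX6 on chromosome 1 had medians of 0.30 and 0.20.

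PRDX1, the abundant cytosolic form, read 9423, 8555, 8100, 7861 and 6861 in CD90-/CD133- cells, 7672, 7271, 6433, 7165 and 4185 in CD90+/CD133- cells, and 8488, 7066, 7755, 7483 and 5730 in CD90+/CD133+ cells. The fractions overlapped, with replicate 5 lowest in each. It was lower in CD90+/CD133- cells by -0.34 (standard error 0.08, adjusted p = 0.00896), in 5 of 5 pairs, and at -0.16 in CD90+/CD133+ cells (adjusted p = 0.162). In the unpaired fit the adjusted p was 0.167, and with the 2 fractions alone 0.0644.

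PRDX3, the mitochondrial form, had means of 2210, 1892 and 2081 and was lower in CD90+/CD133- cells by -0.22 (adjusted p = 0.00554), with no overlap, and at -0.09 in CD90+/CD133+ cells. Its other probe set, near the floor with a mean of 18.2, was at 0.08, and the mean of both gave -0.07 and no call (adjusted p = 0.428). PRDX2 and the endoplasmic PRDX4 passed in neither comparison, PRDX2 at 0.08 and 0.19 and PRDX4 at -0.17 and -0.16.

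Of 7 glutathione transferases measured, 5 were lower in CD90+/CD133- cells (17.6% of all genes), with a median log2 fold change of -0.43. In CD90+/CD133+ cells 2 of 7 were lower and 1 higher (17.0% and 14.2% of all genes), with a median of -0.16. The microsomal MGST1, MGST2 and MGST3 are membrane enzymes, unlike the cytosolic GSTP1, GSTM3, GSTO1 and GSTA4. All 3 microsomal genes were lower in CD90+/CD133- cells and MGST1 and MGST3 also in CD90+/CD133+ cells.

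MGST3 read 2647, 3859, 3399, 3801 and 4461 in CD90-/CD133- cells, 1250, 2179, 2276, 2272 and 2010 in CD90+/CD133- cells, and 1695, 2361, 2900, 2327 and 2629 in CD90+/CD133+ cells. The CD90+/CD133- arrays were all below the CD90-/CD133- arrays, and replicate 1 was the lowest of each fraction. The log2 fold changes were -0.88 (1.83-fold lower, standard error 0.09, adjusted p = 1.53e-04) and -0.61 (adjusted p = 0.00111). MGST3 has 2 dimmer probe sets, at -0.03 and 0.05 in CD90+/CD133- cells, that did not show this, and the mean of its 3 probe sets gave -0.18 in CD90+/CD133+ cells (adjusted p = 0.0682). Its neighbours on chromosome 1 had a median of -0.15.

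MGST1 read 8786, 7314, 6454, 6798 and 6214 in CD90-/CD133- cells, 5801, 5499, 4757, 5440 and 5351 in CD90+/CD133- cells, and 6881, 5454, 5470, 5623 and 4520 in CD90+/CD133+ cells. All CD90+/CD133- arrays were below all CD90-/CD133- arrays, and in CD90+/CD133+ cells replicate 1 overlapped. The log2 fold changes were -0.40 (standard error 0.07, adjusted p = 0.00163) and -0.35 (adjusted p = 0.00337), and its 4 probe sets above the floor gave values from -0.17 to -0.44 over both comparisons, some of which did not pass. The neighbours on chromosome 12 were at -0.30 and -0.43.

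MGST2 read 576, 883, 787, 928 and 1097 in CD90-/CD133- cells, 384, 729, 758, 545 and 539 in CD90+/CD133- cells, and 477, 767, 974, 721 and 935 in CD90+/CD133+ cells. The fractions overlapped, with replicate 1 lowest in each. It was lower in CD90+/CD133- cells by -0.54 (standard error 0.13, adjusted p = 0.0138), in 5 of 5 pairs, and at -0.15 in CD90+/CD133+ cells. The unpaired fit gave 0.141, and the call was lost without replicate 1 or 4 (adjusted p = 0.0622 to 0.0783).

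GSTA4, which conjugates the lipid aldehyde hydroxynonenal, read 55.1, 80.3, 79.3, 79 and 138 in CD90-/CD133- cells, 18.4, 57.4, 58.6, 64.2 and 74.7 in CD90+/CD133- cells, and 30.8, 59.5, 69.1, 73.3 and 98.2 in CD90+/CD133+ cells. The fractions overlapped, and in each replicate 1 was lowest and replicate 5 highest. It was lower in CD90+/CD133- cells by -0.74 (standard error 0.16, adjusted p = 0.00797), in 5 of 5 pairs, and at -0.41 in CD90+/CD133+ cells (adjusted p = 0.0939). The unpaired fit gave 0.253, and that of the 2 fractions alone 0.0809. A dimmer probe set of GSTA4, with a mean of 24.8, gave -0.21 in CD90+/CD133- cells and did not pass (adjusted p = 0.14 over all probe sets). In CD90+/CD133+ cells that probe set gave -0.30 and passed (adjusted p = 0.0424). The neighbours of GSTA4 on chromosome 6 were at 0.28 in CD90+/CD133- cells, on the other side of zero.

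GSTM3 read 32.7, 32.8, 26.2, 29.3 and 36.8 in CD90-/CD133- cells, 19.2, 27.2, 24.9, 23.7 and 21.9 in CD90+/CD133- cells, and 22.1, 28.3, 30.1, 27.8 and 33.3 in CD90+/CD133+ cells. The fractions overlapped, and all these values are close to the floor of 16, though no array lay at it. It was lower in CD90+/CD133- cells by -0.43 (adjusted p = 0.0203), a call lost without replicate 1, 2, 4 or 5 (0.0528 to 0.0789) and without the CD90+/CD133- array of replicate 1 or the CD90-/CD133- array of replicate 5. Its other probe set was at 0.05. Probe sets of the GSTM family can share sequence, so which of its genes was read is uncertain.

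GSTO1 had means of 2009, 2043 and 2489, and was higher in CD90+/CD133+ cells by 0.31 (standard error 0.07, adjusted p = 0.0123), with no overlap, and at 0.02 in CD90+/CD133- cells. Its other probe set gave 0.32 and -0.05. The call was lost without replicate 4 (adjusted p = 0.0677). The neighbours of GSTO1 on chromosome 10 were at 0.33 in CD90+/CD133+ cells, where GSTO1 was at 0.31. In CD90+/CD133- cells they were at 0.41 and GSTO1 at 0.05, each against the median of expressed genes. GSTP1, the main cytosolic transferase of many tumours, was at -0.25 and 0.11 and passed in neither.

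FTL, the light chain of the iron store ferritin, read 7572, 8518, 6574, 8452 and 8762 in CD90-/CD133- cells, 4766, 6537, 6115, 6293 and 8520 in CD90+/CD133- cells, and 4830, 6176, 6250, 5839 and 5493 in CD90+/CD133+ cells. The CD90+/CD133+ arrays were all below the CD90-/CD133- arrays, and replicate 5 of the CD90+/CD133- cells was among them. The log2 fold change was -0.48 in CD90+/CD133+ cells (standard error 0.11, adjusted p = 0.0109) and -0.32 in CD90+/CD133- cells (adjusted p = 0.0572). Without replicate 2 or 4 the first call was lost (adjusted p = 0.0536 to 0.0598). The other probe set of FTL, with a mean of 4949, passed in both comparisons. It gave -0.39 in CD90+/CD133- cells and -0.42 in CD90+/CD133+ cells (adjusted p = 0.0353 and 0.0268 over all probe sets).

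By their brightest probe sets, KEAP1, GPX1, PRDX1, PRDX3, GSTM3, GSTA4 and MGST2 passed in CD90+/CD133- cells and not in CD90+/CD133+ cells. For none of them did the direct comparison of the CD90+ fractions pass. The CD90+/CD133- arrays also had the widest gap between 3′ and 5′ control probes, a measure of RNA integrity and labelling. For ACTB the gap averaged 2.46 on the log2 scale, against 1.84 in CD90-/CD133- cells and 1.70 in CD90+/CD133+ cells, with SDs of 0.56, 0.32 and 0.66 (n = 5 each). For GAPDH it averaged 0.19, 0.06 and 0.05. Its part in these 7 calls was not tested.

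**Figure D3:**
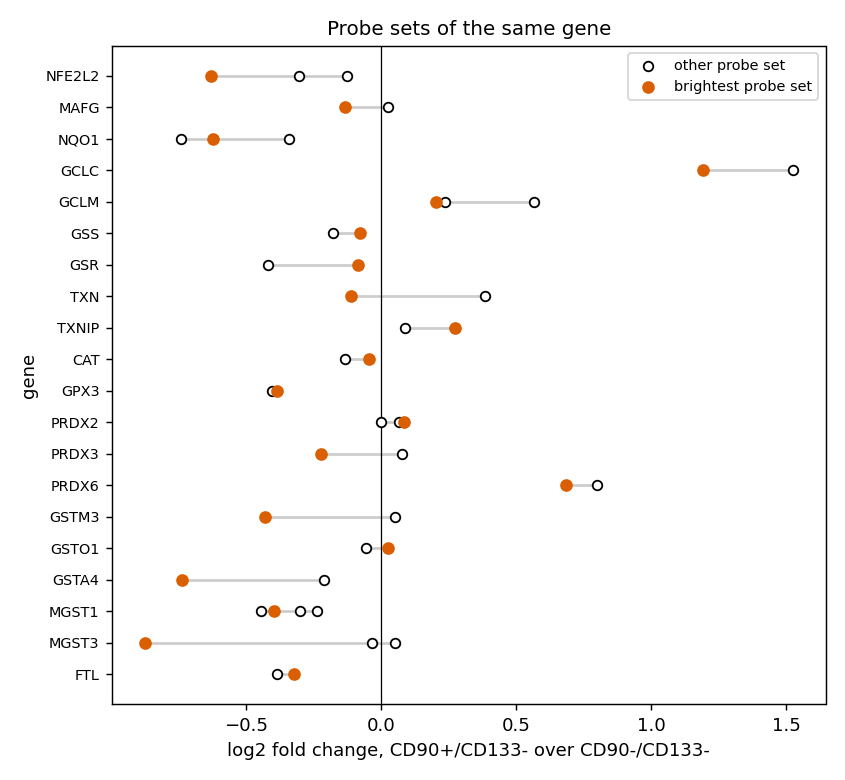
Log2 fold change in CD90+/CD133- over CD90-/CD133- cells for each probe set above the floor, in genes with more than 1 such probe set. The brightest probe set (filled) was used; GCLC, NQO1 and PRDX6 keep their side of zero with every probe set, whereas those of MGST3, PRDX3 and GSTM3 fall on both sides.

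By the fold threshold of the study's methods, a ratio of average intensities of at least 1.5 either way, 6 of the 34 genes differed between CD90+/CD133- and CD90-/CD133- cells, where 13.7% of all genes did. GCLC (ratio 2.21) and PRDX6 (1.6) were higher, and MGST3 (0.55), GSTA4 (0.63), NQO1 (0.66) and NFE2L2 (0.66) were lower. Without replicate 1 it was 3 of the 34 (8.82%) and 13.9% of all genes.

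CD90+/CD133+ cells differed from CD90+/CD133- cells at 1 of the 34 genes (2.94%), where 4.61% of all genes passed, 2.3% as higher and 2.31% as lower. In this fit of all genes, the share of the 34 was thus near that of all genes. The gene was GCLM, lower by -0.34 (standard error 0.07, adjusted p = 0.0369) in 5 of 5 pairs, with means of 1383 and 1092. This call rested on the pairing: the unpaired fit gave an adjusted p of 0.988, and the call was lost without any 1 of the 5 replicate numbers (0.0527 to 0.138) and without 11 of the 15 single arrays (0.0502 to 0.105). NFE2L2 and SOD2 had values that did not overlap between these fractions (2 of 34, with 3.1% of all genes), with log2 fold changes of -0.48 and -0.89, and neither passed (adjusted p = 0.0852 and 0.0576). In the fit of only genes above a mean intensity of 64, 8 of 30 of the listed genes passed, 5 higher and 3 lower. Of all 9988 genes in that fit, 974 were higher and 825 lower. A p that misses the threshold does not show that the fractions are alike.

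Arrays of the same replicate number deviated together in many of these genes. An F test of the 5 numbers in the same fit passed for 15 of the 34 genes, where 21.2% of all genes passed. Of the 15, HMOX1, SRXN1, GCLM, TXN, TXNRD1, PRDX1, PRDX4 and MGST1 lay above their fraction means in replicate 1 and below in replicate 5 when the deviations were averaged over the 3 fractions. TXNIP, CAT, GPX3, GPX4, GSTA4, MGST2 and MGST3 lay on average below in replicate 1 and above in replicate 5. The 8 and 7 genes left 0 with the same sign in both numbers. Without replicate 1, 4 of the 34 genes passed and 5.04% of all genes did. In the fit of only genes above a mean intensity of 64, 19 of 30 passed, where 4908 of 9988 genes did.

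GCLM, added for its spread after its values were seen, read 2453, 1585, 946, 1311 and 521 in CD90-/CD133- cells, 2500, 1560, 1126, 1758 and 656 in CD90+/CD133- cells, and 2280, 1296, 852, 1375 and 448 in CD90+/CD133+ cells. Replicate 1 was the highest and replicate 5 the lowest of every fraction. The means of the numbers spanned 2.17 on the log2 scale, or 4.5-fold (adjusted p = 8.72e-05), beside differences between fractions of at most 0.34. The span was 1.47 for HMOX1, 1.11 for TXNRD1 (adjusted p = 4.23e-04), 0.64 for TXN, 0.63 for PRDX1 and 0.62 for SRXN1.

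In the opposite direction, TXNIP, also chosen for its spread, read 118 in replicate 1 and 1070 in replicate 5 of CD90-/CD133- cells. The same numbers gave 113 and 650.5 in CD90+/CD133- cells, and 99.7 and 712 in CD90+/CD133+ cells. Its numbers spanned 2.85 on the log2 scale (7.19-fold, adjusted p = 0.00294). GPX3 spanned 2.82 (7.07-fold, adjusted p = 0.00137), GSTA4 1.67, GPX4 0.92 and CAT 0.88. NFE2L2 and KEAP1 did not pass for replicate number (adjusted p = 0.879 and 0.128), nor did NQO1 (0.0681), GCLC (0.618) or PRDX6 (0.443). The replicate numbers have no order, and what differed between the sorts is not given in the labels.

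**Figure D4:**
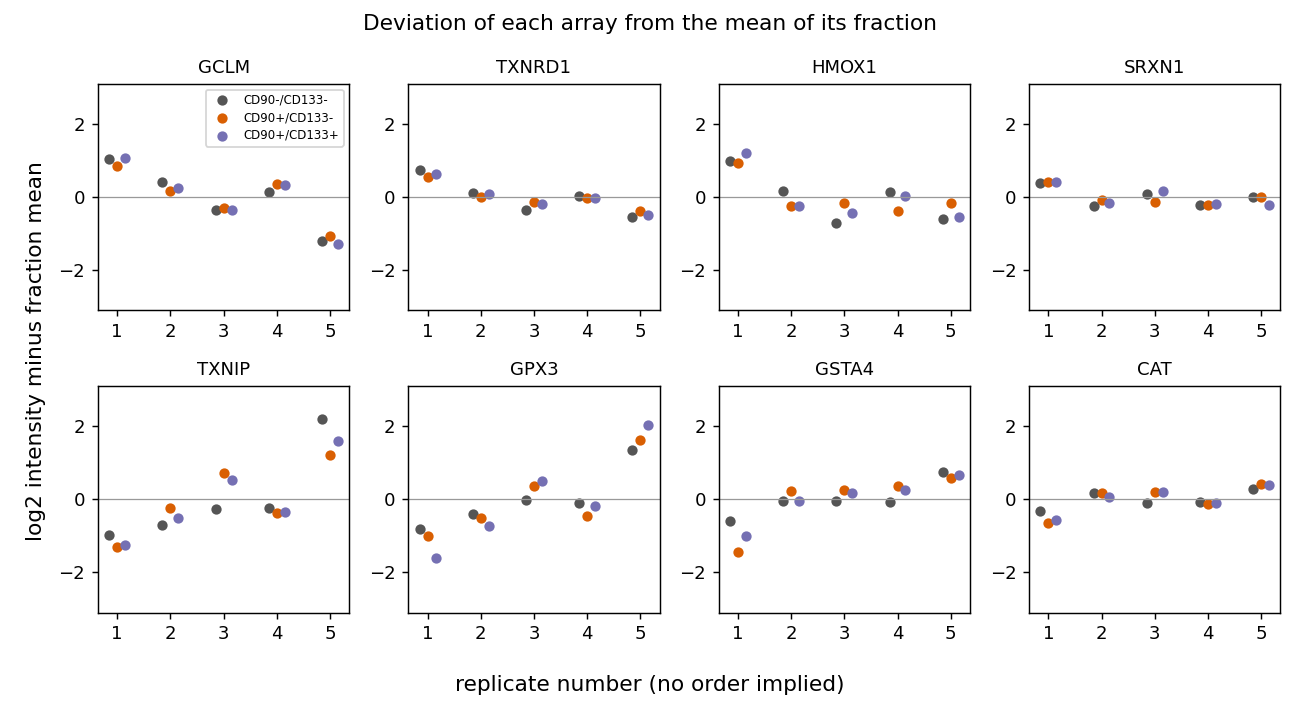
Deviation of each array from the mean of its fraction (log2) against replicate number for 8 genes, with the fraction by colour. The 3 fractions move together within a number: GCLM, TXNRD1, HMOX1 and SRXN1 are high in replicate 1, and TXNIP, GPX3, GSTA4 and CAT are low there.

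Around these genes, 81 of 87 other listed genes of the pathway were measured, with SESN3 and GSTT1 at the floor on every array. In CD90+/CD133- cells 40 of 81 passed (49.4%), 20 higher and 20 lower, where 32.4% of all genes passed. In CD90+/CD133+ cells 40 of 81 passed, 24 higher and 16 lower, where 31.2% of all genes did. In the fit of only genes above a mean intensity of 64, 38 of 63 passed in each comparison. Of the 9988 genes in that fit, 2768 were higher and 3047 lower in CD90+/CD133- cells, and 2764 and 2883 in CD90+/CD133+ cells. The median log2 fold changes of the 81 were 0.01 and 0.00. The unpaired fit gave 25 and 23 genes, where 22.4% and 20.5% of all genes passed. Between the CD90+ fractions 4 of 81 passed (4.94%), near the 4.61% of all genes. CUL3 was lower by -0.35 and TXN2, MSRA and GSTO2 higher by 0.52, 0.21 and 0.53 (adjusted p = 0.0407, 0.0208, 0.0267 and 0.0124). Without replicate 4 each of these 4 calls was lost, and in the unpaired fit those of CUL3 (0.0554) and MSRA (0.752).

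Among the regulators of NRF2, 7 of 11 passed in CD90+/CD133- cells, 3 higher and 4 lower, where 32.4% of all genes passed. In CD90+/CD133+ cells 5 passed, 2 higher and 3 lower, where 31.2% of all genes did. PGAM5, a mitochondrial phosphatase bound by KEAP1, rose by 1.09 (adjusted p = 2.8e-04) and by 1.17 in CD90+/CD133+ cells. MAFF, a small MAF protein, fell by 1.23 and 1.43, though its unpaired adjusted p was 0.134 and 0.0836. BACH1, which represses NRF2 targets by occupying their elements, fell by 0.54 and 0.80 (adjusted p = 0.00294 and 3.53e-04, unpaired 0.0733 and 0.0113). CUL3, the ligase scaffold that KEAP1 recruits, was higher by 0.36 in CD90+/CD133- cells (adjusted p = 0.0063) and at 0.00 in CD90+/CD133+ cells.

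Among genes of glutathione turnover and cystine supply, 6 of 12 were higher and 2 lower in CD90+/CD133- cells (14.8% and 17.6% of all genes). In CD90+/CD133+ cells 4 were higher and 1 lower (14.2% and 17.0% of all genes). ANPEP, a surface aminopeptidase that can split the dipeptide left from glutathione outside the cell, read 213, 288, 371, 334 and 202 in CD90-/CD133- cells, then 1958 to 4038 over the 10 CD90+ arrays. It was 10.7-fold higher in CD90+/CD133- cells and 10.9-fold higher in CD90+/CD133+ cells (adjusted p = 6.14e-06 and 5.39e-06), with no overlap. CTH, which releases cysteine from cystathionine, was higher by 1.55 in CD90+/CD133- cells (adjusted p = 0.0241), where replicate 5 read 796 and the others 104 to 156. That call was lost without replicate 1, 2, 3 or 4 (0.0568 to 0.0704) and without the CD90-/CD133- array of replicate 1, 2 or 5 (0.0508 to 0.0687). CBS, the enzyme before it, was higher by 0.62 and 0.77 (adjusted p = 0.00227 and 7.24e-04, unpaired 0.156 and 0.078). SLC7A11, the cystine transporter, was at 0.59 and -0.52 and passed in neither (adjusted p = 0.341 and 0.42).

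Genes of thioredoxin, glutaredoxin and methionine sulfoxide repair were lower at 6 and higher at 2 of 14 in CD90+/CD133- cells (17.6% and 14.8% of all genes). They were lower at 2 and higher at 3 in CD90+/CD133+ cells (17.0% and 14.2% of all genes). In CD90+/CD133- cells they included GLRX3 at -0.63 (adjusted p = 3.55e-05) and the mitochondrial TXN2 at -0.47 (adjusted p = 0.00279). TXN2 was at 0.05 in CD90+/CD133+ cells. CCS, the copper chaperone of SOD1, fell by 0.69 in CD90+/CD133- cells (adjusted p = 6.26e-04) and by 0.37 in CD90+/CD133+ cells (adjusted p = 0.0168, unpaired 0.168), beside the lower SOD1 itself. The latter call of CCS was lost without replicate 1, 2, 4 or 5 (0.0629 to 0.0758) and without the CD90-/CD133- array of replicate 4.

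All 7 measured genes of NADPH supply passed in CD90+/CD133+ cells, 3 higher and 4 lower, where 31.2% of all genes passed. In CD90+/CD133- cells 3 passed, where 32.4% of all genes did. The mitochondrial IDH2 was higher by 1.13 in CD90+/CD133+ cells (adjusted p = 3.46e-04) and by 0.57 in CD90+/CD133- cells (adjusted p = 0.0121). The latter call was lost without replicate 1, 2, 3 or 4 (0.0506 to 0.0649). NNT, which feeds NADPH to mitochondria, was higher by 0.62 and 0.57 (adjusted p = 0.0161 and 0.0258, unpaired 0.0336 and 0.0555), and both calls were lost without replicate 1, 2 or 4 (0.0642 to 0.124) and without some single arrays of these numbers or, in CD90+/CD133+ cells, of replicate 5.

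Of 13 genes of glutathione conjugation and export, 5 were higher and 2 lower in CD90+/CD133- cells (14.8% and 17.6% of all genes). In CD90+/CD133+ cells 6 were higher and 2 lower (14.2% and 17.0% of all genes). GSTO2, an omega-class transferase like GSTO1, was higher by 0.64 and 1.17 (adjusted p = 7.88e-05 and 4.51e-06). The exporters of glutathione conjugates ABCC1 and ABCC3 were lower, ABCC1 by -0.48 and -0.62 (adjusted p = 5.01e-04 and 1.29e-04) and ABCC3 by -1.51 and -1.46 (adjusted p = 0.00326 and 0.00394, unpaired 0.27 and 0.297). Of 13 genes of quinone and carbonyl reduction 1 passed in CD90+/CD133- cells, where 32.4% of all genes did. This was CBR1, which lies near the floor and was lost without replicate 1, 2, 3 or 4 (0.0867 to 0.132) and without 9 single arrays. In CD90+/CD133+ cells 4 of the 13 passed, all higher (14.2% of all genes were): CBR1 by 0.93, PTGR1 by 0.50, PIR by 0.44 and NQO2, a relative of NQO1, by 0.44. The call of PIR was lost in the unpaired fit (adjusted p = 0.564), without replicate 1, 2, 3 or 4 (0.0562 to 0.12) and without 6 single arrays.

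Haem and iron genes passed at 4 of 7 in both comparisons, where 32.4% and 31.2% of all genes passed. SLC40A1, the iron exporter ferroportin, read 143, 266, 242, 233 and 469.5 in CD90-/CD133- cells and 30.5 to 122 over the CD90+ arrays. Every CD90+ array lay below every CD90-/CD133- array, and the difference was -1.95 and -1.96 on the log2 scale (3.87-fold and 3.89-fold lower, adjusted p = 9.56e-07 and 8.84e-07). BLVRB, which reduces biliverdin, was lower by -1.15 and -0.95 (adjusted p = 5.56e-05 and 1.54e-04), and the transferrin receptor TFRC was higher by 0.39 and 0.32 (adjusted p = 0.0018 and 0.00533). Beside these, FTL was called lower in CD90+/CD133+ cells, and by its other probe set in both comparisons.

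**Figure D5:**
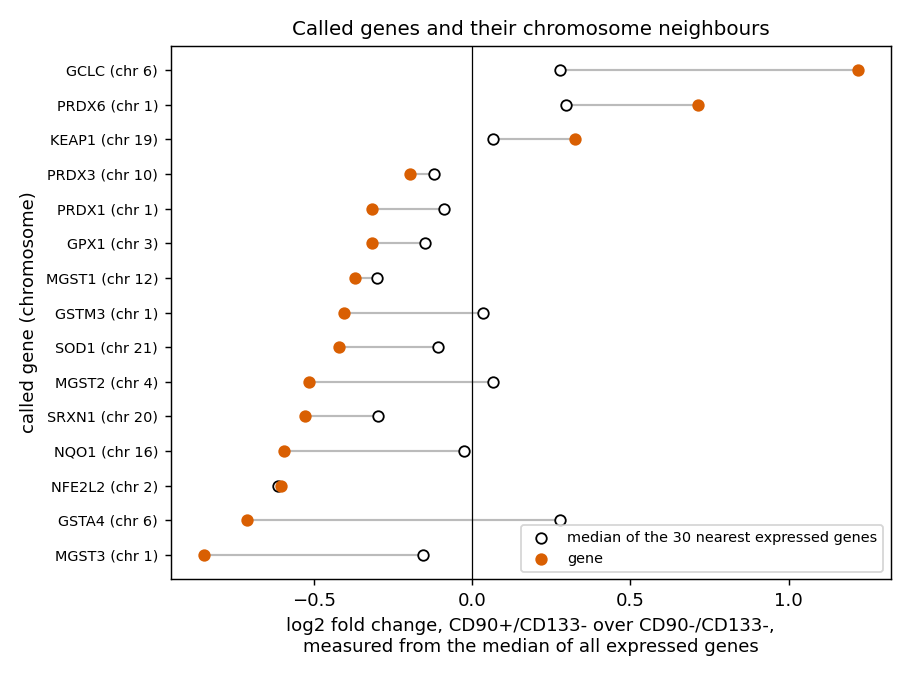
Log2 fold change of the 15 genes called in CD90+/CD133- cells (filled) beside the median of their 30 nearest expressed genes on the same chromosome (open), each taken relative to the median expressed gene. NFE2L2 and MGST1 sit on their neighbours, whereas GCLC, GSTA4, MGST3, MGST2 and NQO1 lie 0.57 or more from theirs.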

How the data were processed

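RNA of 15 sorted samples was hybridized to human U133 Plus 2.0 arrays. The authors used cross-correlation to normalize the arrays to each other, and deposited one linear intensity for each probe set, none below 5. How probes were summarised is not given in the sources used here. Median intensity was 29.4 to 32.4, and 32.7% to 34.5% of probe sets lay under 16. Replicates are numbered 1 to 5 per fraction in the labels, which were followed although the design text says triplicate. The number of arrays limits the precision.

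Values under 16 were set to 16 before taking log2, so changes of dim genes are understated. Of 54675 probe sets, 41097 name 1 gene, 1801 several and 11777 are unnamed in the annotation used. Without 62 control probe sets, 41091 gave 19775 genes, and for 10523 genes with several probe sets the brightest by mean log2 intensity of all 15 arrays was taken. The RefSeq table (GRCh38.p14) held the gene numbers of 41031 probe sets and changed 0 symbols. That table gave the chromosome order of neighbours and the promoter windows. Expressed genes are those with a mean above an intensity of 64.

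All 15 arrays entered 1 fit (limma 3.58.1, functions lmFit and eBayes, under R 4.3.3, 2-sided tests), with fraction and replicate number as terms, Benjamini-Hochberg adjustment over all genes and a threshold of 0.05. The scripts were tested on simulated data. Replicate numbers were taken as pairs because codes in the labels are shared within a number (replicates 4 and 5 share one) and because the deviations from the fraction means of same-numbered arrays correlated at 0.20 to 0.85 over 9988 expressed genes. Those of different numbers correlated at -0.64 to 0.38. Number 3 was the weakest, at 0.20, 0.21 and 0.37. Its CD90+/CD133- array correlated at 0.37 also with the CD90+/CD133+ array of number 5, so the pairing is less clear for number 3. The block raised the number of calls, and the unpaired value is given for a named gene where it ends the call. No arrays were identical, and the highest correlation between arrays was 0.997.

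The genes and lists were chosen with earlier results of these data known. Values on every array are given for the 16 genes with the largest change in the first comparisons among those called there or by replicate number. Other pathway genes named are the called ones with the largest change, overall and by group, and CBS, SLC7A11, CUL3, TXN2, MSRA, NNT, PTGR1, PIR and NQO2, which were added after their values were seen, as were GCLM and TXNIP. Alternatives were no replicate block, only the fractions compared, the label code as block, quantile normalization, median centring, floors of 1 and 64, the mean of probe sets, only brighter genes, an intensity trend, a 2-sample t-test, a 2-fold threshold, geometric means, and each array or number left out. The study's methods list t-tests in general and name none for the arrays, for which they give the fold threshold.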

Additional observations from a re-analysis of the deposited data

Results flagged for a closer look

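Of 102 groups of 5 arrays (34 genes in 3 fractions), 8 had 1 array far from the other 4, where chance flags about 1 in 20 groups. In CD90-/CD133- cells NFE2L2 read 1436 in replicate 1 (others 1595 to 1629) and TXNIP read 1070 in replicate 5 (others 118 to 196). In CD90+/CD133- cells replicate 1 read 177.5 for HMOX1 (others 71.7 to 83.3), 18.38 for GSTA4 (others 57.4 to 74.7) and 1250 for MGST3 (others 2010 to 2276), and replicate 5 read 2735 for TXN (others 4268 to 4747). In CD90+/CD133+ cells replicate 1 read 136.8 for SOD2 (others 93.5 to 103) and 4746 for GSTP1 (others 5900 to 6241). Replicate 1 accounts for 6 of the 8, and replicate 5 for the other two.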

How the results depend on the processing

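Of 3141 values of single genes under another setting, 2904 kept direction and side of the threshold, 118 lost and 59 gained a call, and 60 moved. For the 24 other pathway genes named, 142 of 2226 values lost a call. NFE2L2, NQO1, SRXN1, SOD1 and PRDX6 in both comparisons with CD90-/CD133- cells, and MGST1 and MGST3 in CD90+/CD133- cells, kept their calls under each alternative and with each array or number left out. Without the replicate block, 10 of the 34 genes passed in CD90+/CD133- cells (22.4% of all genes) and 10 in CD90+/CD133+ cells (20.5% of all genes). Between the CD90+ fractions 0 passed (limma, 6 at an unadjusted p under 0.05), where 51 of 19775 genes were higher and 44 lower. The other pathway genes gave 25 and 23 in the comparisons with CD90-/CD133- cells. The fit of only the fractions compared gave 8 of the 34 in CD90+/CD133- cells, where 2370 of 19775 genes were higher and 2689 lower. It gave 0 between the CD90+ fractions (limma, 14 unadjusted), where 11 of 19775 genes were higher and 8 lower. Between the CD90+ fractions the label code as the block gave 0 (limma, 11 unadjusted), where 216 of 19775 genes were higher and 206 lower. The 2-sample t-test gave 0 there (5 unadjusted), where 0 of 19775 genes passed. A floor of 1 gave 2 there (629 of 19775 genes higher and 619 lower) and median centring 4 (997 higher and 496 lower). Only the brighter genes gave 8 of 30, where 974 of 9988 genes were higher and 825 lower. The 2-sample t-test called 20 and 23 of the other pathway genes, and 3719 and 4008 of all genes. At 2-fold, 1 of the 34 genes differed between CD90+/CD133- and CD90-/CD133- cells, and the share of all genes was not counted there. Leaving out single arrays or whole replicate numbers, the counts ran from 11 (without replicate 4, 24.6% of all genes) to 16 in CD90+/CD133- cells, 7 (without replicate 4, 24.0% of all genes) to 14 in CD90+/CD133+ cells, 0 to 2 between the CD90+ fractions (limma, 7 to 14 unadjusted where 0), and 4 (without replicate 1, 5.04% of all genes) to 16 for replicate number. For the other pathway genes the counts ran from 29 (without replicate 4, 24.6% of all genes) to 41 in CD90+/CD133- cells. At 41, without the CD90+/CD133+ array of replicate 5, 2921 of 19775 genes were higher and 3446 lower. In CD90+/CD133+ cells they ran from 30 (without replicate 2, 2178 genes higher and 2569 lower) to 43. At 43, without the CD90+/CD133- array of replicate 5, 3003 were higher and 3526 lower. The count past 1.5-fold ran from 3 (without replicate 1, 13.9% of all genes) to 7. With a floor of 64, GSTM3, GPX2 and OSGIN1 lay at the floor on every array, where no difference can be read. The causes were not tested.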
